A study of Mus musculus with 8 samples.

Results

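The interferon response genes described here are 35 named mouse genes that cells switch on when interferon reaches them, read in naive CD8+ T cells cultured with the liver X receptor (LXR) agonist RGX-104 or with its solvent. They were taken by gene symbol from a written list, and all 35 were found among the 41730 gene rows of the count table. The cells were naive mouse CD8+ T cells from a magnetic kit that leaves them untouched. They were kept for 24 h in DMSO (4 libraries, replicates 1 to 4) or in 2 µM RGX-104 (4 libraries, replicates 5 to 8), with no other agent named for either group. The labels name no mouse strain, age or genotype, and they do not say whether replicates are separate animals or separate cultures, and the spread that p-values rest on may therefore be technical. None of the 8 samples is labelled as treated with interferon.

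Type I interferons bind the receptor made of Ifnar1 and Ifnar2, whose kinases Jak1 and Tyk2 activate transcription factors of the STAT family. Among these, Stat2 joins Irf9 in a complex that binds the interferon-stimulated response element (ISRE) before its target genes. Interferon gamma acts through Ifngr1, Ifngr2, Jak1 and Jak2, and its target genes carry the shorter GAS element. The products sense foreign nucleic acid, block viral replication or feed back on the pathway, and a low tonic interferon signal is known to keep some of them expressed in resting T cells. The comparison asks which of these genes naive CD8+ T cells express at rest, and whether their levels differ after LXR agonism.

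Libraries held 16196217 to 28287445 counts. Levels are given in CPM, a gene's share of the counts of its library on a common scale. The libraries are made from the 3' end of transcripts, so CPM needs no correction for length. Genes are set side by side on this basis, and how fully each gene's 3' end was counted was not assessed. At least 1 count was found for 9772 to 10908 genes in DMSO and 10442 to 10990 in RGX-104, with the 3 lowest values in DMSO replicates 1 to 3. If the zeros among low genes came from random sampling alone, 1 apparent molecule would correspond to 2.90 to 5.48 CPM. Levels of a few CPM would then rest on very few molecules, whatever the read depth. Other variation between libraries also gives zeros, and some values above 0 lay below 1 such molecule, so the estimate is rough. The CD8 T cell genes Cd8a and Cd3e stood at 668 ± 33.8 and 376 ± 36.6 CPM in DMSO (mean ± SD, n = 4), while Cd2, also a general T cell gene, had no count in any library, so a count of 0 in this table need not mean an unexpressed gene. The agonist's known target Abca1, a cholesterol exporter, rose from 6.61 ± 5.59 to 346 ± 34.8 CPM (log2 fold change 5.68 ± 0.65 SE, edgeR adjusted p = 8.64e-05). The desaturase gene Scd2 rose from 15.4 ± 7.32 to 585 ± 34.0 CPM (5.23 ± 0.27, edgeR adjusted p = 7.29e-10).

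The promoter sequences are shown because the same ISRE letters stand before members that were abundant at rest and before members with no count in DMSO. RefSeq promoters (GRCm38.p6) were matched for 25 of the 35 members (not for Dhx58, Ifi27l2a, Mx1, Mx2, Oas2, Parp9, Parp14, Rtp4, Usp18 and Zbp1), and the 250 bases before each start site were searched on both strands. The ISRE core GAAANNGAAA was found in 13 of the 25 members (52.0%), against 936 of 27025 genes with a promoter in the table (3.46%). The GAS letters TTCNNNGAA were found in 6 of the 25 members (24.0%) and in 8.13% of genes. The LXR element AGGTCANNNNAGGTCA, a direct repeat with a spacer of 4 bases, was found in 0 of the 25 members and in 4 of all genes (0.0148%). A string this rare would be absent from nearly any 25 genes, and inexact copies were not searched. Such matches are letters in a window and not measured binding. Each line gives 15 bases on either side of the ISRE match, 5′ to 3′ on the strand of the gene, with the matched letters in capitals. TTTCNNTTTC is the same core read on the opposite strand.
Trim30a: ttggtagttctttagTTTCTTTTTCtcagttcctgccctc
Gbp7: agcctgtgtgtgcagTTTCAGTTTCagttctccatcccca
Stat2: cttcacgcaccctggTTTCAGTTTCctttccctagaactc
Isg15: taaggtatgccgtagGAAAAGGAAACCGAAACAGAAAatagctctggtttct
Ifit1: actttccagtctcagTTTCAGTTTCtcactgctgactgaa
Ifit3: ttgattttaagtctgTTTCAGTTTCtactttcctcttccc
Ifit3b: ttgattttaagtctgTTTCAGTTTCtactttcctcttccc
Rsad2: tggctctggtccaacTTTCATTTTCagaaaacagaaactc
These lie at chr7:104465205-104465244 (minus strand), chr3:142530268-142530307 (plus), chr10:128270261-128270300 (plus), chr4:156200860-156200911 (minus), chr19:34640789-34640828 (plus), chr19:34583392-34583431 (plus), chr19:34607788-34607827 (plus) and chr12:26456548-26456587 (minus). The Isg15 stretch holds 3 overlapping matches, 57 to 78 bases before the start site. Ifit3 and Ifit3b share 216 of 218 aligned upstream bases, and both of their ISRE stretches are identical, yet Ifit3 was read in 6 libraries and Ifit3b in 1. In DMSO the 13 members with the ISRE letters ranged from 0 to 149.8 CPM, with a median of 5.63 CPM. The 12 members with a promoter but without these letters ranged from 0 to 318 CPM, with a median of 12.2 CPM. Both sets held members with no count and members that were well expressed.

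At rest, a few transcription factors, sensors and effectors carried most of the summed level of the 35 members, and 19 members lay below 10 CPM. In DMSO, 8 members averaged at least 50 CPM, 8 lay between 10 and 50 CPM, 15 were detected below 10 CPM and 4 had no count. Irf1 was highest, at 318 ± 82.8 CPM, above 95.7% of the genes tested. It was followed by Trim30a (149.8 ± 13.7 CPM), Ifi27l2a (131 ± 5.23 CPM), Parp14 (111 ± 44.3 CPM) and Ddx58 (99.6 ± 20.1 CPM). On GRCm38.p6 Irf1 lies at chromosome 11, 53770014 to 53778374, Trim30a at chromosome 7, 104409025 to 104465193, Ifi27l2a at chromosome 12, 103433873 to 103443680, Parp14 at chromosome 16, 35831892 to 35871518, and Ddx58 at chromosome 4, 40203777 to 40239825, all protein-coding. These 5 genes made up 60.6% of the summed level of all 35 members. The lowest DMSO library of Irf1 (246 CPM) lay above the highest of Trim30a (161 CPM), while below Irf1 each gene of the 8 overlapped its neighbour in this order between their DMSO libraries. The groups also overlapped in nearly every member, as the plot of all 35 genes by library shows.

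**Figure D1:**
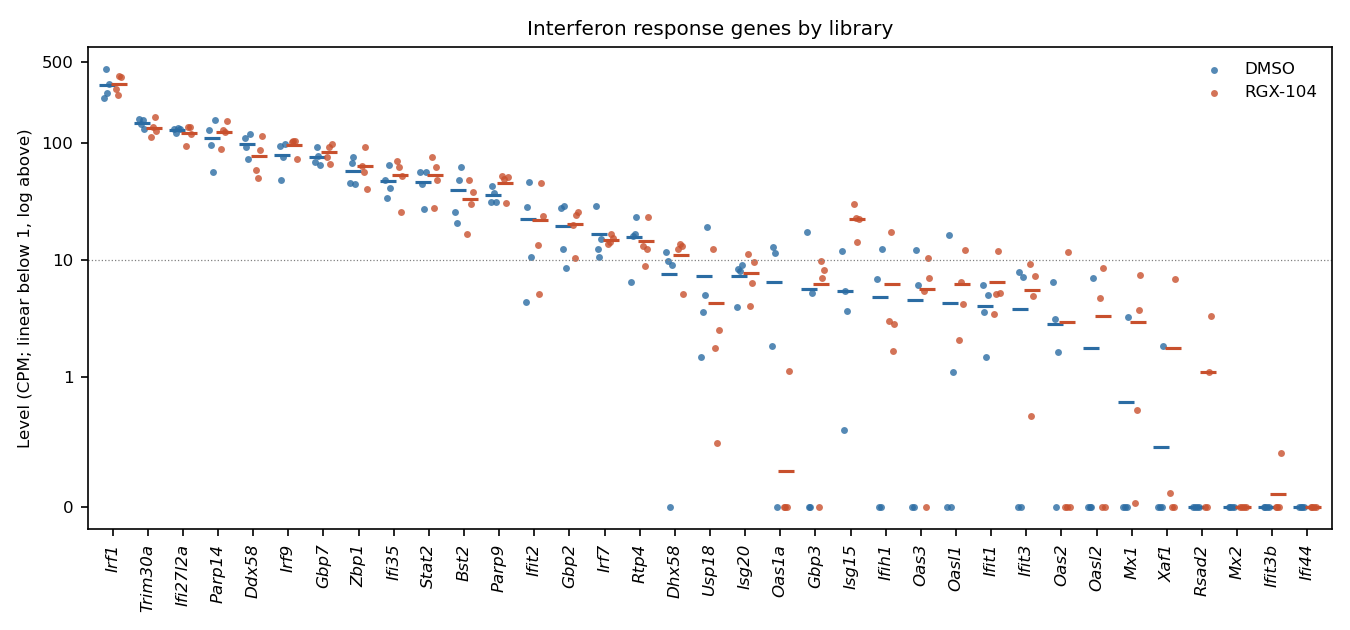
Level of each of the 35 members in CPM (linear below 1, logarithmic above) in each library, DMSO in blue and RGX-104 in red, with short lines at the group means and a dotted line at 10 CPM. Genes are ordered by their DMSO mean, from Irf1 at 318 CPM down to 4 genes with no count in DMSO, and libraries at 0 appear only among genes below 10 CPM.

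No member was called as different between RGX-104 and DMSO. Of the 35, 29 passed the filter on low counts and were tested, and 0 were higher or lower at an adjusted p under 0.05 (edgeR quasi-likelihood test, adjusted over 10037 genes), where 11 of all genes were called (0.110%). limma-voom also called 0 of the 29. DESeq2 called 0 as well, but gave no adjusted p for 18 of the 29, those with a mean over the 8 libraries of 36.6 CPM or less. At an unadjusted p under 0.05 there was 1 member, Isg15, against 3.81% of all genes. The median log2 fold change of the tested members was 0.12, with 20 above 0 and 9 below, beside a median of 0.01 over all tested genes. Against DMSO replicate 4 alone the members' median was -0.04, a setting that leaves out the 3 DMSO libraries with the fewest genes detected. The summed level of all 35 was 1336 ± 76.3 CPM in DMSO and 1382 ± 125 CPM with RGX-104. The libraries ran from 1254 to 1418 CPM and from 1265 to 1502 CPM, so the groups overlapped.

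How small a change could be seen depended on the level of the gene. In the 16 members of 10 CPM or more in DMSO, log2 fold changes lay between -0.37 and 0.34, 9 above 0 and 7 below. In 10 of them the 95% interval stayed within a 2-fold change in either direction. In the 13 tested members below 10 CPM the intervals were 3.71 to 11.2 wide on the log2 scale and none stayed within that range, and Isg15 alone had an interval that excluded 0. Some of these low genes passed the filter only through the libraries in which they were seen. The plot of fold changes shows both sets.

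**Figure D2:**
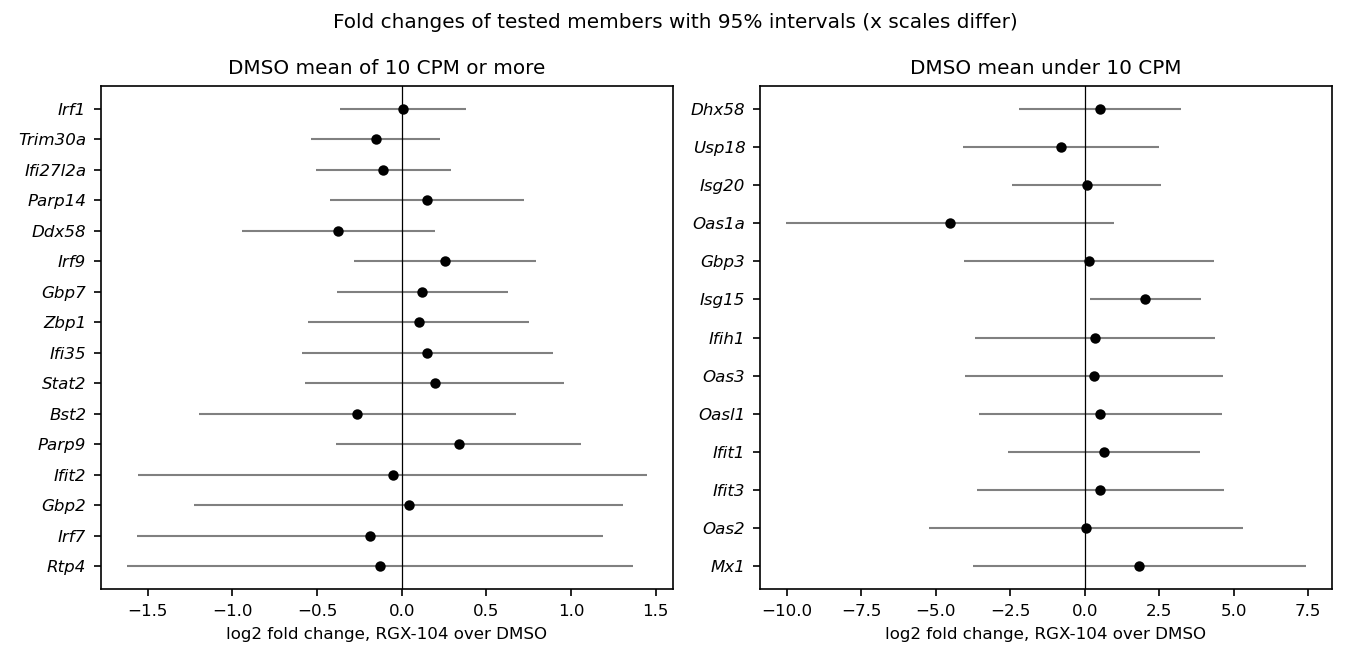
log2 fold change of RGX-104 over DMSO with its 95% interval for the 29 tested members, ordered by DMSO level, with those of 10 CPM or more on the left and those below on the right, on different x scales. Every interval on the left includes 0, and on the right only that of Isg15 does not.

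Of the transcription factors none was called, and the libraries of the groups overlapped in each. Stat2 and Irf9, which bind the ISRE together, were both present at rest. Stat2 was read at 57.1, 44.6, 27.2 and 57.0 CPM in DMSO and at 76.2, 27.9, 63.0 and 48.7 CPM with RGX-104 (log2 fold change 0.20 ± 0.36 SE). Irf9 was read at 94.7, 48.4, 77.0 and 99.1 CPM in DMSO and at 103, 105, 104 and 73.8 CPM with RGX-104 (0.26 ± 0.26). In RGX-104, 3 libraries agreed closely above all DMSO values, and replicate 8 lay inside the DMSO range.

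Irf1, a transcription factor induced above all by interferon gamma and also expressed at rest in T cells, stood at 246, 433, 271 and 323 CPM in DMSO and at 293, 259.7, 374 and 366 CPM with RGX-104. Its fold change was 0.01 ± 0.18 (95% interval -0.37 to 0.38), and the lone high library was DMSO replicate 2. Irf7, which drives interferon alpha production and is itself strongly interferon-induced, was lower, at 16.9 ± 8.40 CPM in DMSO and 15.1 ± 1.32 CPM with RGX-104. Bulk levels such as these cannot tell fewer expressing cells from less RNA per cell.

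Among the sensors of foreign nucleic acid, Ddx58 (RIG-I, a sensor of viral RNA ends) and Zbp1 (a sensor of left-handed nucleic acid) were well detected. The relatives of Ddx58 among the members, Ifih1 and Dhx58, were low. Ddx58 was read at 111, 93.5, 74.2 and 119 CPM in DMSO and at 59.1, 50.7, 87.1 and 115 CPM with RGX-104 (log2 fold change -0.37 ± 0.27 SE, edgeR unadjusted p = 0.186, adjusted p = 1.00). RGX-104 replicates 5 and 6 lay below every DMSO library, and replicate 8 lay within the DMSO range. Zbp1 was read at 45.9, 67.3, 76.6 and 44.5 CPM in DMSO and at 63.5, 56.5, 93.0 and 40.7 CPM with RGX-104 (0.10 ± 0.31). Ifih1 (MDA5, which binds long double-stranded RNA) averaged 4.83 ± 6.03 and 6.30 ± 7.58 CPM. Dhx58 (LGP2, a regulator of both RNA sensors) averaged 7.70 ± 5.25 and 11.2 ± 4.08 CPM. Neither differed beyond its spread.

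Isg15 was the member whose groups separated, although it was not called. This gene encodes a ubiquitin-like protein that is attached to other proteins during the interferon response. It was read at 12.0, 0.592, 5.46 and 3.68 CPM in DMSO and at 30.01, 23.1, 14.4 and 22.4 CPM with RGX-104. Each RGX-104 value exceeded each DMSO value, the single case among the 35 members, against 2.20% of all tested genes that were higher without overlap. Its log2 fold change was 2.03 ± 0.89 (SE, 95% interval 0.17 to 3.88, edgeR unadjusted p = 0.0338, adjusted p = 1.00). By the rough estimate from zeros, the DMSO values amount to very few apparent molecules, at 3.16 to 5.48 CPM for each in the DMSO libraries. The value of 0.592 CPM lies below that range. The lowest DMSO value came from replicate 2, which also had the fewest genes detected (9772), and the highest from replicate 1 (10047 genes). DMSO replicate 4, with 10908 genes, stood at 3.68 CPM. RGX-104 replicate 5, with the fewest genes of its group (10442), had the highest value of all. Against DMSO replicate 4 alone, whose genes detected lay within the RGX-104 range, the log2 fold change was 2.57 (edgeR unadjusted p = 0.0154, adjusted p = 0.976). The spread in that fit comes from the RGX-104 libraries, and the lone DMSO library is assumed to vary like them. With genes detected per library as a covariate it was 2.20 (unadjusted p = 0.0981). DESeq2 gave an unadjusted p of 0.00793 and, for its low mean, no adjusted p, and limma-voom an adjusted p of 0.735. Usp18, the protease that removes Isg15 from proteins and restrains the type I receptor, went the other way in value, at 7.41 ± 8.16 CPM in DMSO and 4.35 ± 5.55 CPM with RGX-104 (-0.79 ± 1.57). Isg15 lies at chromosome 4, 156199424 to 156200818 (protein-coding), and overlaps the predicted gene Gm46878.

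**Figure D3:**
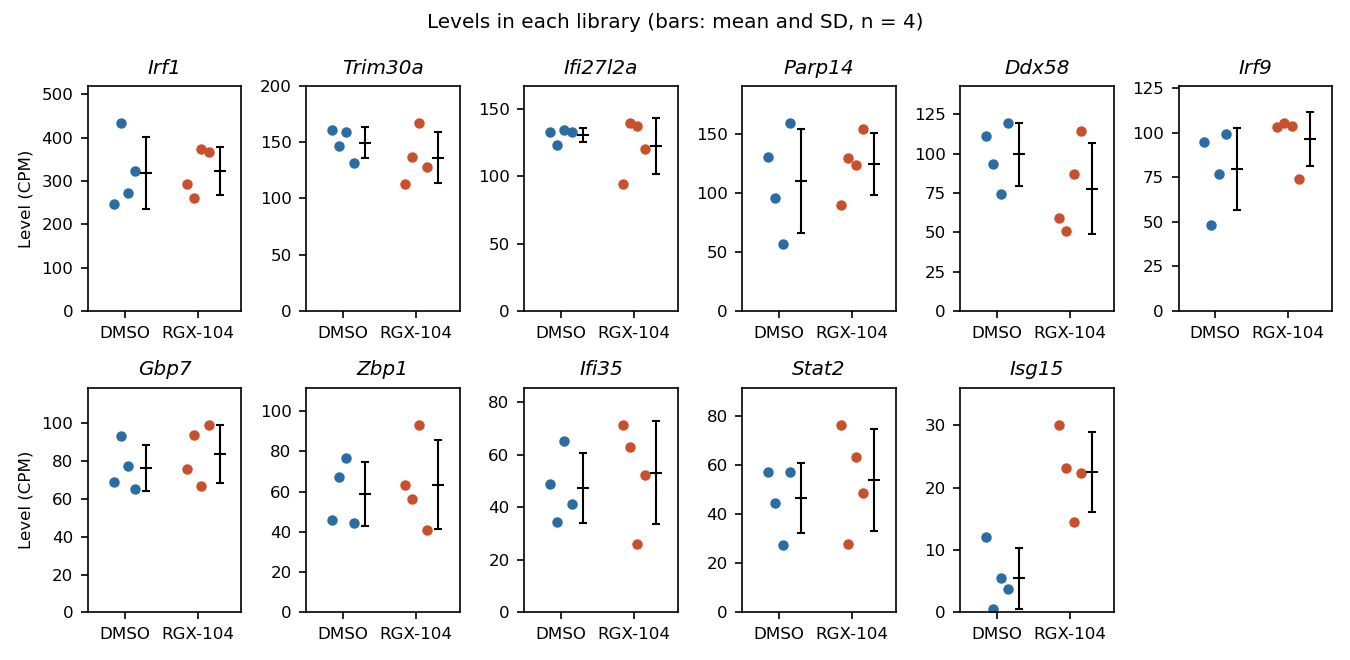
Level in CPM in each library of the 10 members with a mean of at least 50 CPM over all libraries and of Isg15, DMSO in blue and RGX-104 in red, with black bars at the mean and SD (n = 4). The groups overlap in the first 10 panels, while for Isg15 the RGX-104 libraries (14.4 to 30.01 CPM) lie above the DMSO libraries (0.592 to 12.0 CPM).

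The IFIT genes belong to a family that includes a protein binding viral RNA that lacks host cap marks. They lie side by side on chromosome 19 (34550550 to 34650009) and were low, with Ifit2 the most abundant. Ifit2 was read at 4.42, 28.6, 47.1 and 10.7 CPM in DMSO and at 13.4, 5.11, 45.6 and 23.9 CPM with RGX-104, a wide spread in both groups (log2 fold change -0.05 ± 0.72 SE). Ifit1 averaged 4.07 ± 2.01 and 6.46 ± 3.72 CPM. Ifit3 was read at 0, 8.02, 0 and 7.24 CPM in DMSO and at 9.33, 0.703, 5.00 and 7.30 CPM with RGX-104. Ifit3b had no count apart from 0.416 CPM with RGX-104 replicate 8. Of the 50-base words in the last 500 bases of Ifit3 transcripts, 14.9% also occur in Ifit3b. Of those of Ifit3b, 1.77% occur in any other gene, with Lrp8 the best match. Some Ifit3 reads may therefore have been dropped or counted for Ifit3b, and the values are uncertain to that extent.

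Among the members, the oligoadenylate synthetases Oas1a, Oas2 and Oas3, of a family that makes the messenger for the antiviral ribonuclease RNase L, and the OAS-like Oasl1 and Oasl2 were near the detection limit in both groups. Oas1a was read at 1.85, 12.9, 11.5 and 0 CPM in DMSO and at 0, 0, 0 and 1.13 CPM with RGX-104. The groups overlapped through DMSO replicate 4, and the fitted log2 fold change was -4.52 ± 2.62. Oas1a shares 56.1% of its terminal 50-base words with Oas1g, so its counts are uncertain. Oas2 averaged 2.83 ± 2.76 and 2.95 ± 5.90 CPM, Oas3 4.58 ± 5.84 and 5.71 ± 4.32 CPM, and Oasl1 4.35 ± 7.98 and 6.30 ± 4.39 CPM. Oasl2 was too low to test, with counts in DMSO replicate 4 (7.11 CPM) and RGX-104 replicates 5 and 7 (4.81 and 8.58 CPM).

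Of the interferon-induced GTPases, the guanylate-binding protein Gbp7 was well expressed and Mx1 and Mx2, of a dynamin-like family that traps viral components, were near or below detection. Gbp7 was read at 69.2, 93.1, 77.6 and 65.2 CPM in DMSO and at 75.8, 93.8, 66.7 and 99.1 CPM with RGX-104 (log2 fold change 0.12 ± 0.24 SE). Gbp2, of the same cluster on chromosome 3, averaged 19.6 ± 10.6 and 20.3 ± 6.94 CPM, and Gbp3 averaged 5.63 ± 8.17 and 6.32 ± 4.38 CPM. Mx1 was seen in DMSO replicate 4 alone among controls (3.25 CPM) and at 0.0354, 0.750, 3.77 and 7.42 CPM with RGX-104 (1.83 ± 2.67). Mx2 had no count in any library. The RefSeq annotation lists both Mx1 and Mx2 as transcribed pseudogenes. A limit of 3 counts per group would be 0.0381 CPM for DMSO and 0.0363 CPM for RGX-104. It covers the counting error of reads alone, and the apparent molecules, as estimated, would set a higher limit.

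The remaining effectors held both genes with even levels and several with few or no counts, and none was called. Trim30a, of the tripartite motif family, was read at 161, 146, 159 and 132 CPM in DMSO and at 113, 137, 167 and 128 CPM with RGX-104 (log2 fold change -0.15 ± 0.18 SE). Ifi27l2a, a small hydrophobic protein, was read at 133, 123, 134 and 133 CPM in DMSO and at 94.4, 139, 137 and 120.3 CPM with RGX-104 (-0.11 ± 0.19). Its 4 DMSO libraries agreed closely, and RGX-104 replicate 5 was the low library. Ifi27l2a overlaps Ifi27 in the annotation, and the strand setting is not known, so reads from the shared stretch may have been counted for either gene. Ifi27 was counted apart, at 71.9 ± 15.2 CPM in DMSO and 76.3 ± 5.88 CPM with RGX-104. Of the terminal 50-base words of Ifi27l2a, 0.483% also occur in another gene, Ifi27l2b.

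Parp14, an ADP-ribosyltransferase, was read at 130.4, 96.0, 56.5 and 159 CPM in DMSO and at 90.1, 129.8, 124 and 154 CPM with RGX-104 (0.15 ± 0.27). Its relative Parp9 averaged 36.1 ± 5.54 and 46.1 ± 10.2 CPM (0.34 ± 0.35), and it overlaps its partner gene Dtx3l. Ifi35, which binds the signalling protein Nmi, was read at 48.9, 34.2, 65.3 and 41.1 CPM in DMSO and at 71.3, 62.9, 26.1 and 52.4 CPM with RGX-104 (0.15 ± 0.36). The RGX-104 values of Ifi35 span a wider range than the DMSO values and include the lowest of all 8.

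Bst2 (tetherin, which holds budding virus at the cell surface) averaged 39.7 ± 19.8 CPM in DMSO and 33.6 ± 13.4 CPM with RGX-104. Rtp4, a chaperone of membrane receptors, averaged 15.7 ± 6.91 and 14.5 ± 6.21 CPM, and Isg20, an exonuclease, 7.41 ± 2.33 and 7.85 ± 3.27 CPM. Rsad2 (viperin, an antiviral enzyme of the radical SAM family) was seen in RGX-104 replicates 7 and 8 alone, at 1.11 and 3.33 CPM. Xaf1, a partner of the apoptosis inhibitor XIAP, was seen at 1.84 CPM in DMSO replicate 4 and at 0.106 and 6.95 CPM with RGX-104 replicates 5 and 8. Ifi44 had no count. The low counts of Rsad2 and Xaf1 fell in DMSO replicate 4 and RGX-104 replicates 5, 7 and 8 (10442 to 10990 genes detected). RGX-104 replicate 6, with 10748 genes, had no count of either. The part of detection in these low counts was not tested.

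No single library held most of the highest or lowest values of the members. Among the 17 members with a mean of at least 10 CPM over all libraries, each of the 8 libraries was the highest for 1 to 4 members and the lowest for 1 to 3. Their median log2 deviation from the DMSO mean was 0.084, -0.067, 0.072 and -0.043 in DMSO replicates 1 to 4. In RGX-104 replicates 5 to 8 it was -0.082, -0.013, 0.16 and 0.22, and a small shift shared by the members was not tested. The number of members with a count was 25, 25, 22 and 30 in DMSO and 28, 26, 30 and 31 in RGX-104, lowest in DMSO replicates 1 to 3, which also had the fewest genes detected. Markers of other cells that respond to or make interferon were low. Plasmacytoid dendritic cell markers summed to 13.98 to 49.6 CPM in DMSO and 19.9 to 79.0 CPM with RGX-104, mostly Tcf4. The defining Siglech had no count in DMSO and averaged 0.679 CPM with RGX-104. Macrophage markers summed to 10.1 to 30.9 and 8.06 to 17.9 CPM, and B cell markers to 35.7 to 175 and 97.8 to 135 CPM. The ranges overlapped between the groups in each list, and the part of such cells in the low members was not tested.

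Receptor and signalling genes for type I interferon and interferon gamma were read at rest and none was called, while no interferon gene was read. All 15 listed interferon genes, among them Ifnb1 and Ifng, had no count in any library. Of 10 genes for receptors and signalling 9 were tested and 0 were called, 5 above 0 and 4 below, with a median log2 fold change of 0.00. The untested gene, Ifnlr1 of the interferon lambda receptor, named after its values were seen, had no count in any library. Ifnar1 averaged 141 ± 29.4 CPM in DMSO and 134 ± 36.5 CPM with RGX-104, and Ifnar2 114 ± 25.4 and 130.3 ± 37.0 CPM. Ifngr1 averaged 472 ± 31.8 and 479 ± 26.4 CPM, and Ifngr2 65.7 ± 10.1 and 67.1 ± 6.85 CPM. The kinases stood at 629.9 ± 69.2 and 554 ± 62.9 CPM (Jak1) and at 71.7 ± 13.8 and 83.5 ± 19.8 CPM (Tyk2). In each of these 6 genes the libraries of the groups overlapped.

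Jak2, the kinase of the interferon gamma receptor and of several cytokine receptors, was the gene of this list that separated. It was read at 52.6, 100.3, 64.5 and 56.7 CPM in DMSO and at 29.3, 29.95, 34.0 and 51.8 CPM with RGX-104, with every RGX-104 library below every DMSO library (1.35% of all tested genes were lower without overlap). Its log2 fold change was -0.93 ± 0.33 (SE, 95% interval -1.62 to -0.24, edgeR unadjusted p = 0.0108, adjusted p = 1.00), and DESeq2 gave an adjusted p of 0.130. The gap between the groups was narrow, from 51.8 to 52.6 CPM. Without DMSO replicate 2 the log2 fold change was -0.70 (edgeR unadjusted p = 0.0584). With genes detected per library as a covariate it was -0.82 (edgeR unadjusted p = 0.0785), and against DMSO replicate 4 alone -0.69.

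The rest of the pathway held 1 called gene. Of 12 negative regulators 12 were tested, 6 above 0 and 6 below, and of 9 other genes of the IRF family and its partners 9 were tested, 6 above 0 and 3 below. Of 18 genes of nucleic acid sensing 15 were tested, 7 above 0 and 8 below, and of 19 further genes, guanylate-binding proteins, immunity-related GTPases and the interferon gamma targets Cxcl9, Nlrc5, Ciita and Socs1, 10 were tested, 5 above 0 and 5 below. Socs1 also counts among the negative regulators, as does the member Usp18. None of these 4 lists held a called gene or an edgeR p under 0.05 before adjustment, and 0 were called by DESeq2 or by limma-voom. DESeq2 gave no adjusted p for several tested genes of each list and could not call those. Of 70 other interferon-stimulated genes 48 were tested, 28 above 0 and 20 below, with a median log2 fold change of 0.05.

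The called gene of the last list was Ly6e, a small surface protein held by a lipid anchor that many cells induce with interferon. It rose from 641 ± 23.4 to 1009 ± 88.0 CPM (log2 fold change 0.64 ± 0.11 SE, edgeR adjusted p = 0.00987), without overlap of the groups. Without DMSO replicate 3, RGX-104 replicate 6 or RGX-104 replicate 7 the log2 fold change was 0.62, 0.59 and 0.61, of similar size, while the call was lost (edgeR adjusted p = 0.0549, 0.108 and 0.0896). With genes detected per library as a covariate and against DMSO replicate 4 alone it was 0.62 and 0.56, and the call was lost too (adjusted p = 0.298 and 0.750). In the same list 2 further genes of the 48 tested reached an unadjusted p under 0.05 without being called, where 3.81% of all genes did. Apobec3, a cytidine deaminase, stood at 271 ± 31.3 and 337 ± 30.3 CPM (0.30 ± 0.14, edgeR unadjusted p = 0.0480, adjusted p = 1.00). Ifi209, a DNA-binding protein of the PYHIN family, stood at 162 ± 27.6 and 115 ± 23.2 CPM (-0.51 ± 0.20, edgeR unadjusted p = 0.0194, adjusted p = 1.00). Sp110, a nuclear body protein named here after its values were seen, had no overlap between the groups (67.3 ± 7.34 and 93.2 ± 12.2 CPM) at an unadjusted edgeR p of 0.0647, where 2.20% of all genes were higher without overlap. The plot of the pathway's lists sets these values beside the members.

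**Figure D4:**
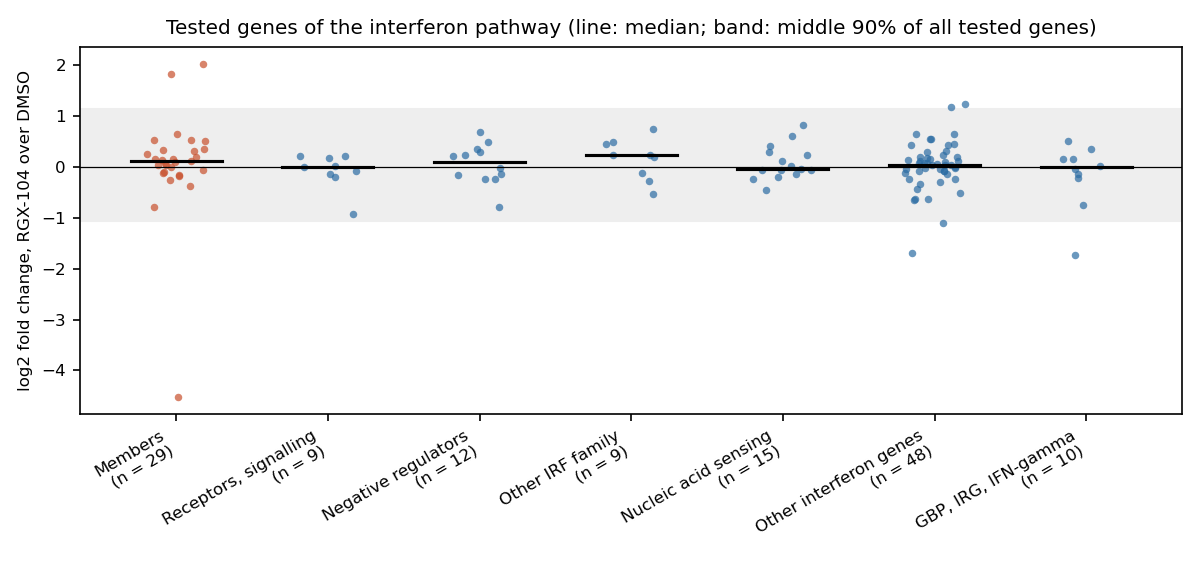
log2 fold change of RGX-104 over DMSO for each tested gene of 7 lists (n under each name), with a black line at the list median and a grey band for the middle 90% of all tested genes (-1.06 to 1.15). The list medians lie between -0.04 and 0.24, and the lowest point, at -4.52, is Oas1a.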

How the data were processed

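The deposited table holds raw counts of reads for each gene symbol, unnormalized, with a column per library, per the file headers and the whole-number values. A QuantSeq kit gave reads from 3' ends, per the labels' protocols. The submitters' processing notes list DESeq2 1.4, STAR 2.7.8a, R 4.1.0 and build GRCm38 and give no role for any of them. For the counting tool, annotation, strand setting and molecular identifiers the entry is: not given in the sources used here.

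The test was the quasi-likelihood test of edgeR 4.0.16 in R 4.3.3, with TMM normalization, filterByExpr with a minimum count of 10 (10037 genes), and Benjamini-Hochberg adjustment over all genes tested. Genes are called where the adjusted p is under 0.05. The SE is approximate, |log2 fold change| over the root of the F statistic, and 95% intervals use it with the fit's degrees of freedom. The script was tested on simulated data. Alternatives were DESeq2 1.42.0 (test and size factors), limma-voom (limma 3.58.1), 2 filters, a covariate and leaving out each library. A robust dispersion and a fit against DMSO replicate 4 alone were chosen after seeing the data. Totals were 16196217 to 28287445 per library. Apparent molecules were estimated from the zeros among genes of 2 to 20 CPM in the other libraries, with Poisson sampling assumed.

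All 35 members are named, and those with a mean of 50 CPM or an unadjusted p under 0.05 are given by library. From the other lists, 6 receptor and signalling genes, called genes and up to 4 genes per list at an unadjusted p under 0.05 are named. The rule also named 1 further signalling gene, which is not reported here. The members, lists and this rule were chosen with earlier results of these data known. Positions are those of RefSeq on GRCm38.p6, 1-based. Terminal sequence shared between genes was counted over GENCODE M21 transcripts.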

Additional observations from a re-analysis of the deposited data

Results flagged for a closer look

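In groups of 4 libraries, 14 of the 64 with any count held a member whose highest or lowest library was an outlier, and chance would give about 3.2. Of these 14, 6 are a single library with counts among 3 at 0, which any member near the detection limit can give. They are Mx1 (3.25 CPM), Oasl2 (7.11 CPM) and Xaf1 (1.84 CPM) in DMSO replicate 4, Ifit3b (0.416 CPM) and Oas1a (1.13 CPM) in RGX-104 replicate 8, and Oas2 (11.8 CPM) in RGX-104 replicate 7. DMSO replicate 4 had the most genes detected of its group, 10908 against 9772 to 10194, and RGX-104 replicate 8 the most of all, 10990. The part of detection in these values was not tested.

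Among other low members, Oasl1 reached 16.3 CPM in DMSO replicate 2, with 0 to 1.10 CPM in the others, and Usp18 stood at 12.6 CPM in RGX-104 replicate 5 against 0.494 to 2.55 CPM. Ifih1 stood at 17.6 CPM in RGX-104 replicate 6 against 1.67 to 3.04 CPM, and Xaf1 at 6.95 CPM in RGX-104 replicate 8 against 0 to 0.106 CPM. Dhx58 was low in RGX-104 replicate 8, at 5.11 CPM against 12.5 to 13.8 CPM.

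Of the better expressed members, Irf9 was low in RGX-104 replicate 8, at 73.8 CPM against 103 to 105 CPM. Parp9 was low in RGX-104 replicate 7, at 30.9 CPM against 49.7 to 52.6 CPM. Ifi27l2a was low in DMSO replicate 2, at 123 CPM against 133 to 134 CPM, a small gap in a tight group.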

How the results depend on the processing

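No paired analysis was possible because the library numbers are unique across the groups. No member was called under any of the 16 alternatives, although DESeq2 gave no adjusted p for 18 of the 29 tested. Over all genes DESeq2 called 31 (11 with edgeR), and the fit with the genes detected as a covariate called 7. Leaving out 1 library gave 8 to 14 calls, and a members' median log2 fold change of 0.030 to 0.14. Against DMSO replicate 4 alone the medians were -0.041 (members), -0.13 (receptors and signalling), 0.21 (negative regulators) and 0.24 (nucleic acid sensing). Leaving out 1 library gave -0.038 to 0.12 for negative regulators, -0.063 to 0.15 for nucleic acid sensing and -0.22 to 0.10 for the list of guanylate-binding and interferon gamma target genes. Calls among other interferon-stimulated genes fell to 0 in both the covariate fit and that against DMSO replicate 4 alone, and ranged from 0 to 1 with a library left out. The gene concerned, Ly6e, had a log2 fold change of 0.62 and 0.56 in those fits, against 0.64 with all libraries, and 0.59 to 0.69 with a library left out. In the fit against DMSO replicate 4 alone, the spread comes from the RGX-104 libraries.

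The following uncalled log2 fold changes changed sign, with causes not tested. Against DMSO replicate 4 alone these were Ifit2 (0.99), Ifit3 (-0.41), Isg20 (-0.25), Mx1 (-0.16), Stat2 (-0.12), Irf1 (-0.041), Irf9 (-0.080), Oas1a (5.50, where that library is at 0, so its sign is no measured reversal), Oas3 (-0.14), Ifih1 (-1.03), Trim30a (0.00282), Parp14 (-0.40) and Ifngr1 (-0.13). With the covariate these were Ifit2 (0.19), Oas3 (-0.68), Gbp3 (-0.80), Ifih1 (-0.45), Parp14 (-0.23) and Ifngr1 (-0.052). DESeq2, and its size factors in edgeR, gave -0.010 for Irf1, -0.011 for Ifngr1 and -0.00154 and -0.00153 for Ifngr2. The filter at 20 CPM gave -0.00767 for Irf1 and -0.00845 for Ifngr1, and limma-voom -2.89 for Oas2 and -0.023 for Gbp2. Leaving out 1 library gave Bst2 -0.51 to 0.062, Gbp2 -0.21 to 0.30, Gbp3 -0.28 to 1.82, Ifi35 -0.023 to 0.38, Ifih1 -0.98 to 1.43, Ifit2 -0.69 to 0.58, Ifnar1 -0.22 to 0.026, Ifngr1 -0.034 to 0.045, Ifngr2 -0.066 to 0.090, Irf1 -0.10 to 0.19 and Irf7 -0.36 to 0.21. It gave Isg20 -0.16 to 0.28, Oas2 -8.89 to 0.84, Oas3 -0.15 to 1.44, Oasl1 -0.026 to 4.05, Parp14 -0.072 to 0.38, Rtp4 -0.46 to 0.13, Stat2 -0.019 to 0.40, Usp18 -2.23 to 0.35 and Zbp1 -0.14 to 0.26.

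Isg15 kept its direction in each fit that tested it, from 1.65 without DMSO replicate 2 to 2.77 without DMSO replicate 1. Its unadjusted edgeR p rose above 0.05 without DMSO replicate 4, RGX-104 replicate 5, 6 or 8 (0.0664, 0.0968, 0.0684 and 0.0681). It was not tested at a minimum mean of 20 CPM.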
